A study of Mus musculus with 6 samples.

Results

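A set of 10 genes that restrain signalling from the T cell receptor (TCR) was followed in stage 0 invariant natural killer T (iNKT) cells, the earliest precursors after positive selection. They are the ubiquitin ligases Cbl and Cblb, the phosphatases Ptpn22 and Ptpn6, the phosphatase-like protein Ubash3a, the kinase Csk with its membrane anchor Pag1, the adaptor Sla, and the diacylglycerol kinases Dgka and Dgkz. The genes were chosen by symbol for their known function, after earlier results of these data had been seen. All 10 were found among the 48397 genes of the count table. All 10 also passed the filter on low counts, which kept 12312 genes for testing. The cells came from BALB/c mice (genotype WT) and from SKG mice, which carry a hypomorphic mutation of Zap70, the kinase that relays the TCR signal, on the BALB/c background. The mutation is present in all cells of the SKG mouse, so the thymus in which the precursors were selected differed between the groups as well. Cells negative for CD44 and CD8, low or negative for CD4, and positive for CD24, CD69 and the PBS57-CD1d tetramer were sorted from the thymi of mice aged 8 to 10 weeks. Each library was made from a pool of 3 mice, from which about 1000 cells were recovered, and there were 3 libraries per genotype.

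In T cells these proteins act at successive steps of one cascade. Csk phosphorylates the inhibitory tyrosine of Lck, Ptpn22 and Ptpn6 remove activating phosphates from the proximal kinases and their substrates, and the Cbl proteins attach ubiquitin to activated receptors and kinases. Further downstream, diacylglycerol kinases convert diacylglycerol to phosphatidic acid and so withdraw the lipid that activates RasGRP1 and protein kinase C theta. Thymocytes depend on such brakes to set how strong a signal is read during selection.

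The libraries held from 37176544 to 43115544 reads counted on genes, and between 10835 and 14791 genes per library reached 10 reads. Levels are given as CPM, the reads of a gene relative to the library total after TMM scaling. Of the sorted cells' own markers, Cd3e lay between 798 and 1096 CPM and overlapped between the genotypes. Cd69 was at 312 to 391 CPM in BALB/c and 152 to 249.5 in SKG, and Egr2 at 1097 to 1547 in BALB/c and 493 to 956 in SKG, both without overlap, whereas Cd24a mRNA was low and uneven (7.31 to 90.7 CPM) although the cells were gated on CD24. The 6 markers of double-positive thymocytes summed to 63.3 to 350.1 CPM in BALB/c and 64.5 to 189.8 in SKG, highest in BALB/c replicate 1. The 5 myeloid markers summed to 99.0 to 228 CPM in BALB/c and 75.0 to 266 in SKG, with Cst3 at 69.1 to 163 in all libraries, Lyz2 highest in SKG replicate 3 (107) and BALB/c replicate 1 (53.7), and Cd68 up to 28.1. Csf1r and Itgam, of the same list, were at no more than 0.199 CPM. The 6 B cell markers reached at most 8.38 CPM, and Cd22 was at 0 in all libraries. The 5 erythroid markers summed to 69.7 CPM in BALB/c replicate 1 and to no more than 1.57 elsewhere, with Alas2 at 0 throughout. Of the 5 thymic epithelial markers, Krt5 and Psmb11 were at 0 throughout, and the sum of 10.0 to 86.9 CPM was almost entirely Epcam. The libraries of the genotypes overlapped for each of these sums of other cell types. In bulk samples such as these, fewer cells that express a gene and less RNA per cell cannot be told apart.

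Between the genotypes, 0 of the 10 genes were called by edgeR's quasi-likelihood test with limits of 0.1 for the false discovery rate (FDR) and 1.5 for the fold change, and over all tested genes the share called was 0%. The other tools also called 0 of the 10, where limma-voom called 0% of all genes, DESeq2 without shrinkage 2.58% and DESeq2 with shrunken fold changes 1.67%. Sla was lower in every SKG library than in any BALB/c library, at 0.667 times the BALB/c level, and Dgkz was higher in every SKG library, at 1.32 times. For the other 8 genes the libraries of the genotypes overlapped. This count of 2 of 10 stands beside 13.9% of all tested genes whose libraries did not overlap, and in single directions beside 6.77% with every SKG library above and 7.12% with every SKG library below. The same 2 genes, and no other of the 10, had an unadjusted edgeR p under 0.05, as did 5.45% of all tested genes. All 10 fitted differences were smaller than 1.5-fold. Their median was 0.15 on the log2 scale (all tested genes, -0.02), and 6 were above and 4 below 0.

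**Figure D1:**
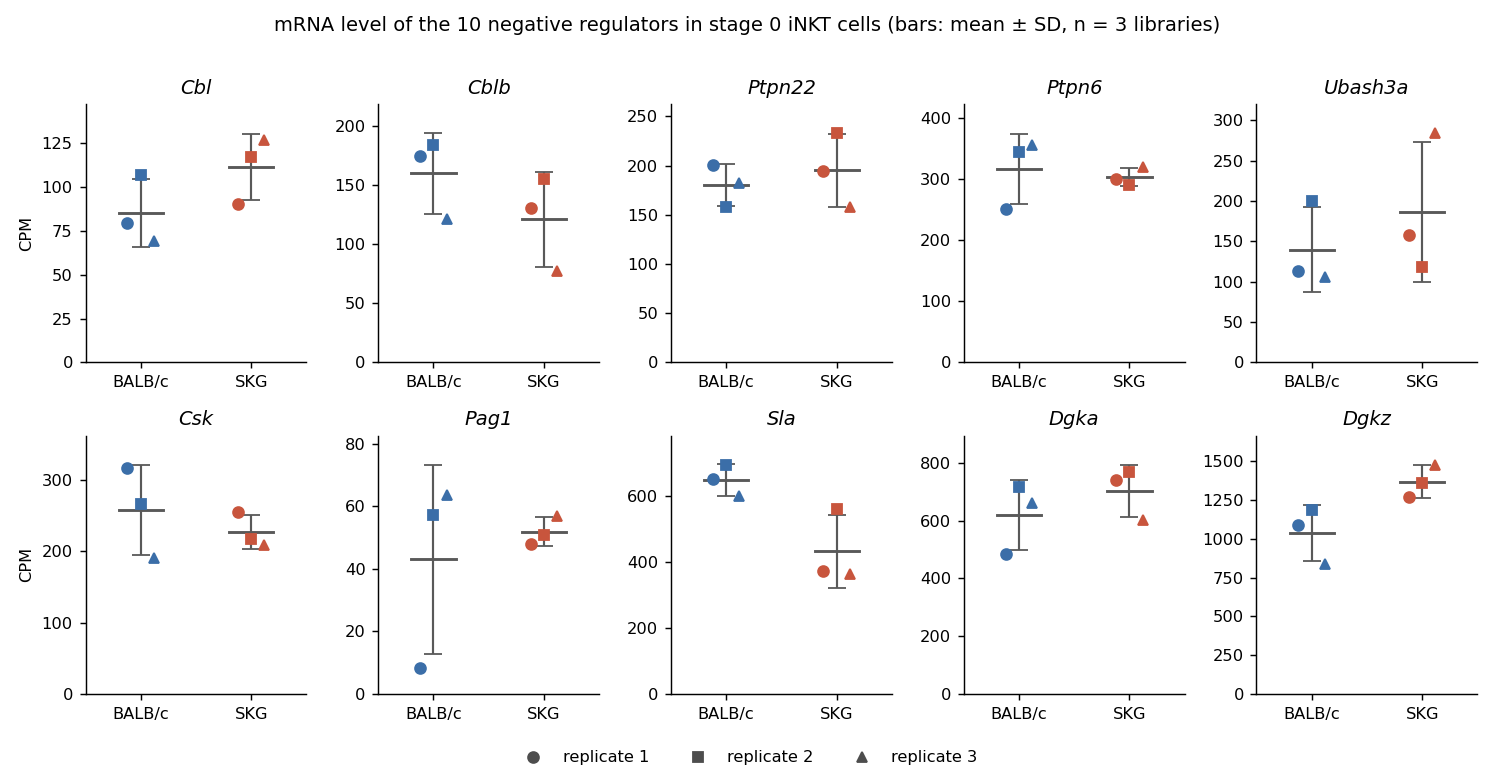
Level of each of the 10 genes in CPM in 3 BALB/c (blue) and 3 SKG (red) libraries, with a marker shape per replicate number and bars for the mean ± SD (n = 3). The groups are separate for Sla and Dgkz and overlap in the other 8 panels, and BALB/c replicate 1 lies far below the other libraries for Pag1.

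Per kilobase of exon the 10 genes spanned a 38.7-fold range of mean level. The order over the 6 libraries was Dgkz (mean 192 CPM per kilobase), Dgka (139), Ptpn6 (111), Csk (65.0), Sla (58.9), Ptpn22 (27.7), Ubash3a (14.5), Cblb (13.4), Cbl (7.97) and Pag1 (4.96). Of the 9 steps between neighbours, only that from Ptpn6 to Csk and that from Sla to Ptpn22 separated all libraries, and the ranges overlapped at the other 7. The diacylglycerol kinases and Ptpn6 thus formed the upper group in each library, with Dgkz inside the top 1.31% and Dgka inside the top 2.26% of 11918 tested genes with a length. Cbl stood at 47.0% from the top and Pag1 at 57.6%. Lengths are the union of all annotated exons, and the transcripts in use were not determined, so the order depends on that choice of length.

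**Figure D2:**
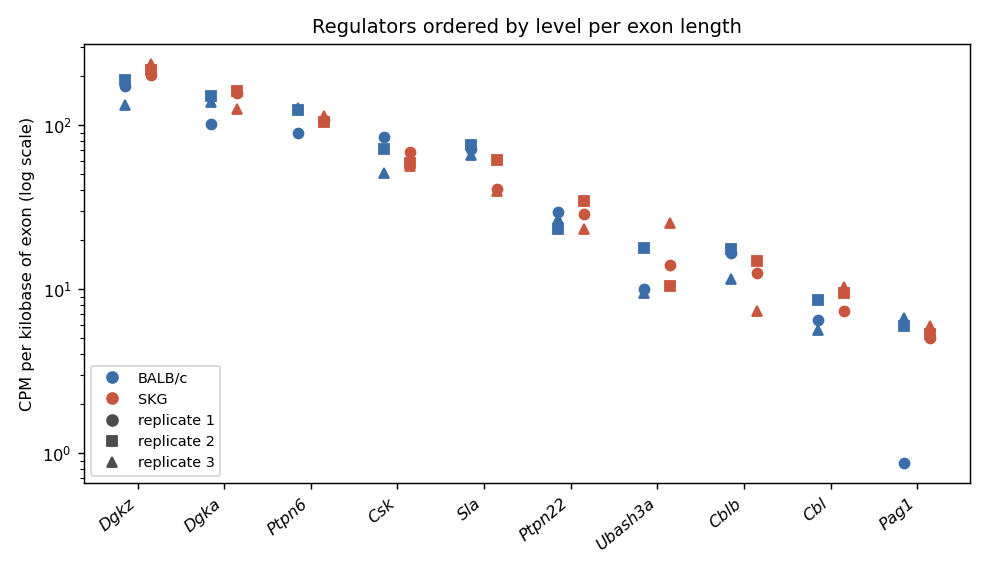
Level per kilobase of annotated exon (log scale) of the 10 genes in each library, ordered by the mean over 6 libraries. Dgkz, Dgka and Ptpn6 lie between 89.4 and 236, clear of the other 7 genes.

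The spread among replicates was close to that of tested genes at least as high as the lowest of the 10, a set not matched to each gene's level. Within both genotypes the highest library was under 2-fold above the lowest for 7 of the 10, where 61.5% of the 4913 tested genes with at least the mean level of Pag1 (47.5 CPM) met the same limit. The exceptions were Cblb, Ubash3a and Pag1. Counting error was small beside this spread, since the genes had from 342 to 53483 reads per library, or a counting coefficient of variation of 5.41% to 0.432%. Reads that are PCR copies of one molecule cannot be recognised here, so this covers counting error only.

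The ubiquitin ligases Cbl and Cblb are close relatives with a shared tyrosine kinase binding domain and RING finger, and Cblb is best known for raising the threshold at which T cells respond without costimulation. Cbl lies on chromosome 9 of GRCm38 from 44142976 to 44234049 (minus strand) and Cblb on chromosome 16 from 52031225 to 52208048 (plus strand). Cbl was at 79.3, 107 and 69.4 CPM in BALB/c replicates 1 to 3 and at 90.5, 117 and 127 in SKG replicates 1 to 3. BALB/c replicate 2 lay within the SKG range, so the groups overlapped. The fitted log2 fold change of SKG over BALB/c was 0.39 (standard error 0.25, 95% interval -0.21 to 1.00, adjusted p = 0.982 from edgeR). Cblb was at 175, 184 and 121 CPM in BALB/c and at 131, 155 and 77.1 in SKG. Here the lowest BALB/c library lay inside the SKG range and SKG replicate 3 stood below all others. The log2 fold change was -0.40 (standard error 0.31, 95% interval -1.14 to 0.34, adjusted p = 0.991 from edgeR), and it went to -0.15 without SKG replicate 3.

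The fitted differences of this pair were of opposite sign, and their ratio within a library, which does not depend on library scaling, separated the genotypes. Per kilobase of exon, Cblb over Cbl was 2.60, 2.03 and 2.05 in BALB/c and 1.71, 1.55 and 0.715 in SKG. Every BALB/c library was thus above every SKG library, with means of 2.23 ± 0.324 and 1.33 ± 0.534 (SD, n = 3 libraries). Cblb exceeded Cbl in 5 of the 6 libraries and lay below it in SKG replicate 3. The log2 difference of the ratio was -0.84 and ranged from -1.07 to -0.44 with 1 library left out, the last without SKG replicate 3. SKG replicate 3 also had the fewest genes with at least 10 reads, the highest myeloid marker sum and the highest level of Epcam. The other epithelial markers were at 0 in that library. The part of these features in the ratio was not tested. Of the 4 ratios computed this was the only one without overlap, and no test across genes stands behind it. For 3 against 3 values the smallest p of an exact two-sided permutation test is 0.1.

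The bases before a RefSeq start of Cbl and of Cblb are shown because their ratio did not overlap between the groups, a separation that was not tested. A further reason is that the study examined Egr and NFAT binding sites in later iNKT subsets, not in stage 0 cells. The sequences are RefSeq promoter windows on GRCm38.p6, cut to the 250 bases before the annotated start, printed 5′ to 3′ on the strand of the gene. Capitals mark matches on either strand to the Egr core GCGNGGGCG and to the NFAT core GGAAA, whose first letters GGAA are also the core of Ets sites. The Cbl window lies at chr9:44234047-44234296 and the Cblb window at chr16:52031299-52031548. The GENCODE start of Cblb is at 52031225, so the Cblb window lies inside the annotated gene, before a RefSeq start further downstream.
Cbl: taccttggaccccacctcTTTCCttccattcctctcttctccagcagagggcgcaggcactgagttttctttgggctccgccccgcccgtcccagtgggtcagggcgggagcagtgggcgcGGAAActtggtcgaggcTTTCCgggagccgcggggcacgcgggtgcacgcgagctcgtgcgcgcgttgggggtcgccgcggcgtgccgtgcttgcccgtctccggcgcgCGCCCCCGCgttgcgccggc
Cblb: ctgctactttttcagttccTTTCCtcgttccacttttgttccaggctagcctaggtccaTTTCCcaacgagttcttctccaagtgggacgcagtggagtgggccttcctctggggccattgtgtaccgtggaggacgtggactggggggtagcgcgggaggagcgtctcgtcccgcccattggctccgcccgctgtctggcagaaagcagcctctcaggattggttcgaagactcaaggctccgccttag
The Cbl window held the only Egr match among the 14 windows of 8 of the genes, beginning at position -20 from the start, while 4.70% of all 32851 windows of this length held one. The NFAT core was found in 10 of the 14 windows, against 55.6% of all windows, and the AP-1 core TGANTCA in 0 of the 14, against 6.75%. The E-box core CANNTG was found in 9 of the 14, against 66.2%. Windows of one gene can overlap, as those of Dgka do. Sla and Pag1 had no entry. A match in these letters is no measure of binding, and these counts describe the windows alone.

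**Figure D3:**
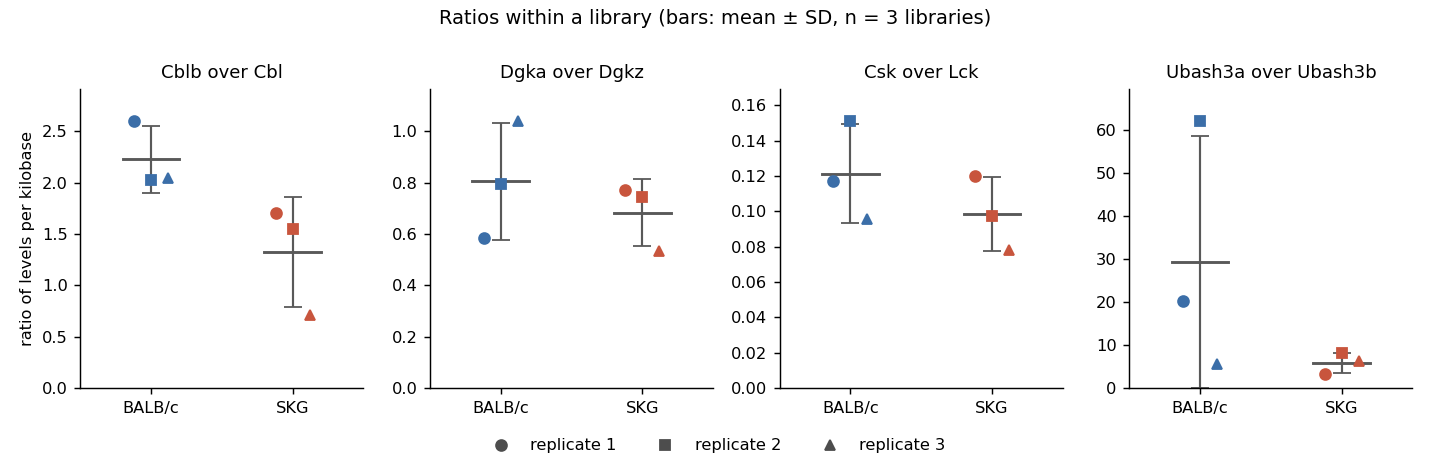
Ratios of levels per kilobase within each library for 4 pairs, with BALB/c in blue, SKG in red, a marker shape per replicate number and bars for the mean ± SD (n = 3). Cblb over Cbl is separate, from 2.03 upwards in BALB/c and up to 1.71 in SKG, and the other 3 ratios overlap.

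Ptpn22 encodes the phosphatase PEP, which works with Csk on Lck, and Ptpn6 encodes SHP-1, which is recruited to inhibitory receptors and acts on proximal TCR kinases. Ptpn22, on chromosome 3 from 103859795 to 103912247, was at 200.5, 158 and 182 CPM in BALB/c and 194, 233 and 158 in SKG. Ptpn6, on chromosome 6 from 124720707 to 124738714, was at 251, 344 and 355 CPM in BALB/c and 299.5, 290.2 and 319 in SKG. Neither gene showed a difference beyond the spread of libraries. The SKG libraries of Ptpn6 stood within 1.10-fold of each other, inside the wider BALB/c range. For Ptpn22 the log2 fold change was 0.11 (95% interval -0.37 to 0.58, adjusted p = 0.991 from edgeR) and for Ptpn6 -0.07 (95% interval -0.48 to 0.35, adjusted p = 0.991 from edgeR). Changes of 1.5-fold therefore lie at or outside the ends of both intervals. Exons of Ptpn6 share 6.96% of their length with the antisense gene Gm20531, whose counts were 0 to 42 reads per library.

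Ubash3a (Sts-2, also TULA) belongs to a pair of ubiquitin-binding proteins that lower the phosphorylation of Zap70 and related kinases, and its relative Ubash3b (Sts-1) is the more active phosphatase. On chromosome 17 from 31207873 to 31246892, Ubash3a was at 113, 199.9 and 106 CPM in BALB/c and 158, 118 and 284 in SKG. The groups overlapped, and SKG replicate 3 stood apart above the others. The fitted log2 fold change of 0.42 ± 0.40 (SE; edgeR adjusted p = 0.991) went to -0.01 without that library. Ubash3b, taken from a list of related phosphatases, was far scarcer at 3.64, 2.10 and 12.3 CPM in BALB/c and 30.6, 9.52 and 29.8 in SKG. Its libraries overlapped between the genotypes. The log2 fold change of Ubash3b was 1.95 ± 0.94 (SE, 95% interval -0.30 to 4.21, adjusted p = 0.952 from edgeR). With 1 library left out it ranged from 1.53, without BALB/c replicate 2, to 3.02, without BALB/c replicate 3. Per kilobase Ubash3a exceeded Ubash3b in each library, by 20.2, 62.0 and 5.60 times in BALB/c and 3.35, 8.07 and 6.20 times in SKG. These ranges overlapped.

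Csk phosphorylates the C-terminal inhibitory tyrosine of Lck and Fyn, and Pag1 is a transmembrane adaptor that brings Csk to the membrane. Csk, on chromosome 9 from 57626646 to 57653631, was at 317, 267 and 190.4 CPM in BALB/c and 255, 218 and 209.6 in SKG. The SKG values all fell inside the BALB/c range. Its log2 fold change was -0.18 (95% interval -0.70 to 0.34, adjusted p = 0.991 from edgeR). Set against its substrate Lck, at 1389.5 to 2122 CPM over the 6 libraries, Csk per kilobase was 0.117, 0.151 and 0.0958 of Lck in BALB/c and 0.120, 0.0975 and 0.0779 in SKG, with overlap.

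Pag1, on chromosome 3 from 9687479 to 9833679, was at 8.29, 57.4 and 63.6 CPM in BALB/c and 47.9, 50.9 and 56.9 in SKG. A single library, BALB/c replicate 1, set its spread, with 342 reads where the others had 1930 to 2874. Its log2 fold change was 0.27 with a standard error of 0.70 (95% interval -1.40 to 1.94, adjusted p = 0.991 from edgeR), and -0.22 without that library. BALB/c replicate 1 was also the library with the highest sum of double-positive thymocyte markers and of erythroid markers, and the part of this in the value of Pag1 was not tested. In SKG the 3 libraries of Pag1 agreed within 1.19-fold.

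Sla encodes SLAP, an adaptor that is abundant in double-positive thymocytes and that, together with Cbl, directs the TCR zeta chain to degradation. It lies on chromosome 15 from 66780819 to 66831829 on the minus strand, inside Tg on the plus strand, with no shared exon bases. BALB/c replicates 1 to 3 had 26914, 25770 and 27109 reads of Sla, and SKG replicates 1 to 3 had 15003, 21847 and 13192. As CPM these were 653, 695 and 600.2 in BALB/c and 372, 562 and 365 in SKG, so that all 3 BALB/c libraries were above all 3 SKG libraries. SKG replicate 2 came close to the lowest BALB/c library, while the BALB/c libraries differed by at most 1.16-fold. The means were 649 ± 47.4 and 433 ± 112 CPM (SD, n = 3 libraries). The log2 fold change was -0.58 (standard error 0.20, 95% interval -1.07 to -0.10), with an unadjusted p of 0.0245 and an adjusted p of 0.834 from edgeR, so the difference was not called. Leaving out 1 library gave values from -0.81, when SKG replicate 2 was omitted, to -0.46, when SKG replicate 3 was omitted. Sla stayed below 0 under all 15 alternatives, with an unadjusted p under 0.05 in 10 of them. These alternatives reuse the same libraries and are not independent. The unadjusted edgeR p was 0.0599, 0.0737 and 0.0443 without BALB/c replicate 1, 2 and 3 in turn. It was 0.0844, 0.00262 and 0.0842 without SKG replicate 1, 2 and 3 in turn. The log2 fold change of Sla was -0.57 without BALB/c replicate 1, the library with the highest double-positive marker sum. The sum of the 5 stage 0 markers was also separate, at 2565 to 3129 CPM in BALB/c and 2008 to 2357 in SKG. Of its members Egr2 and Cd69 were separate and lower in SKG, whereas Cd3e, Zbtb16 and Cd24a overlapped. The part of these markers, or of those of double-positive thymocytes, in the value of Sla was not tested.

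**Figure D4:**
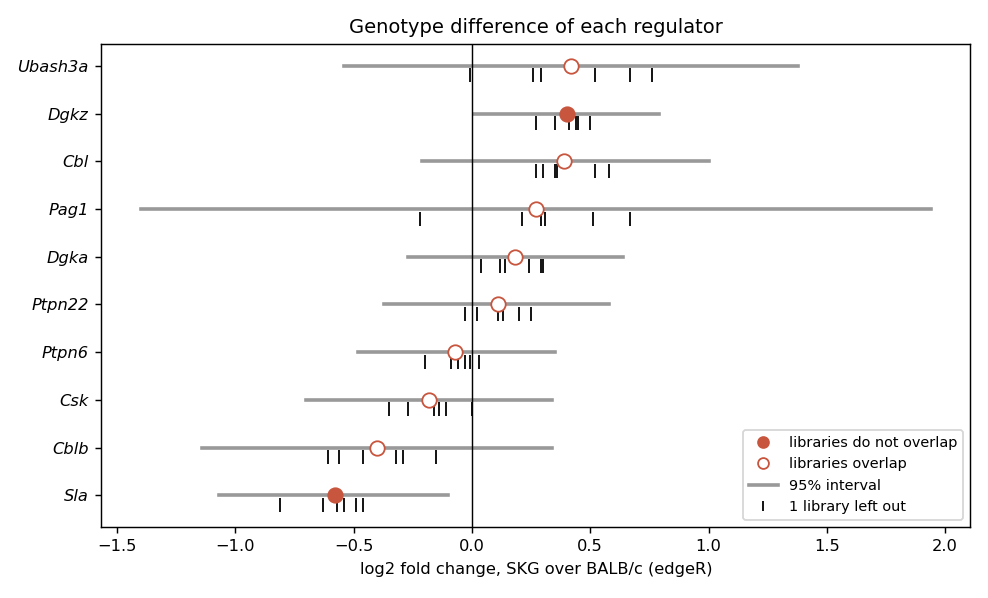
Log2 fold change of SKG over BALB/c from edgeR for each gene (circles, filled where libraries do not overlap), with the 95% interval (grey line) and the 6 values with 1 library left out (black ticks). The intervals of Sla and Dgkz lie on one side of 0 before adjustment over all genes, and the widest interval, -1.40 to 1.94, belongs to Pag1.

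The diacylglycerol kinases Dgka and Dgkz are the main isoforms of T cells, and Dgkz is regarded as the stronger brake on Ras activation. Dgkz, on chromosome 2 from 91932824 to 91975864, was the highest of the 10 genes. Its levels were 1089, 1188 and 836 CPM in BALB/c and 1267, 1358 and 1479 in SKG. Each SKG library was above each BALB/c library, although the nearest ones differed by little. The means were 1038 ± 182 and 1368 ± 106 CPM (SD, n = 3 libraries), a log2 fold change of 0.40 (standard error 0.16, 95% interval 0.01 to 0.79). The unadjusted p was 0.0457 and the adjusted p 0.905 from edgeR, so Dgkz was not called. It was above 0 under all 15 alternatives, from 0.27 (without BALB/c replicate 3) to 0.50 (without BALB/c replicate 2) with 1 library left out, and the unadjusted p stayed under 0.05 in 6 of the 15. Here too the alternatives reuse the same libraries and are not independent. Exons of Dgkz share 3.54% of their length with Gm9821 on the other strand, which had 49 to 361 reads per library.

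Dgka, on chromosome 10 from 128720134 to 128744855, was at 483, 716 and 661 CPM in BALB/c and 741, 769 and 601 in SKG. The SKG library with the lowest level lay below 2 of the BALB/c libraries. Its log2 fold change was 0.18 (95% interval -0.27 to 0.64, adjusted p = 0.991 from edgeR). Dgkz exceeded Dgka per kilobase in 5 of the 6 libraries, with Dgka over Dgkz at 0.584, 0.794 and 1.04 in BALB/c and 0.770, 0.746 and 0.535 in SKG. These ranges overlapped too. The window before one annotated start of Dgkz, at chr2:91963564-91963813 on the minus strand, is shown because Dgkz is the gene of this set with separate groups for which a window was given. It holds neither of the cores marked above for Cbl and Cblb, and 77.6% of its bases are G or C. The other RefSeq window of Dgkz, at chr2:91950349-91950598, holds the NFAT core 1 time, at position -247, and is not printed. Both windows lie inside the GENCODE span of Dgkz, which reaches 91975864, so the bases before its outermost start were not examined.
Dgkz: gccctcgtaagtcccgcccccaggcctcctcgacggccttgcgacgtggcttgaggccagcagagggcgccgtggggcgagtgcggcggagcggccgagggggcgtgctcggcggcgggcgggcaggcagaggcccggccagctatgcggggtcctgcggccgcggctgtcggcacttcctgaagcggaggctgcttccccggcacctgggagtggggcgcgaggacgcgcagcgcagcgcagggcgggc

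Related genes were taken from 5 lists chosen by function, after earlier results of these data had been seen. The lists held 50 genes in all, of which 44 were tested. By edgeR 0 of the 44 were called (0% of all genes), and 7 had an unadjusted p under 0.05, as did 5.45% of all tested genes. In 8 of the 44 every SKG library was above every BALB/c library, and in 0 every SKG library was below, where all tested genes gave 6.77% and 7.12%. The median log2 fold change of the 44 was 0.09, with 27 above 0 and 17 below. These comparisons share their libraries with those of the 10 genes. The counts of separate groups per list that follow come from small lists and are read beside these shares.

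Among other ubiquitin ligases and their adaptors, 0 of 6 tested genes were called and 1 had separate groups (median log2 fold change 0.22). This was Nedd4, a HECT-type ligase, at 46.3, 119.5 and 94.2 CPM in BALB/c and 137, 184 and 186 in SKG (log2 fold change 0.96, adjusted p = 0.871 from edgeR). Without BALB/c replicate 1, the lowest library for Nedd4, its log2 fold change was 0.67. The highest of this list, the ligase adaptor Ndfip1 and the ligase Peli1, were close to level between genotypes, with log2 fold changes of 0.06 and 0.09. Among 12 other phosphatases (median 0.02) the groups were separate for Ptpn11, which encodes SHP-2, a relative of Ptpn6 that often promotes Ras signalling. Ptpn11 was at 10.8, 34.8 and 44.4 CPM in BALB/c and 83.4, 98.3 and 88.7 in SKG (log2 fold change 1.59 ± 0.52 SE, edgeR adjusted p = 0.833). BALB/c replicate 1 was again the lowest library, and without it the log2 fold change of Ptpn11 was 1.19. Ptpn7, an abundant phosphatase of the list that acts on MAP kinases, overlapped between genotypes, with a log2 fold change of 0.48.

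Of 9 other inhibitory adaptors and kinases (median 0.09), 2 had separate groups. Map4k1 (HPK1), a kinase that marks the adaptor SLP-76 for degradation, was at 135, 157 and 179 CPM in BALB/c and 206, 257 and 204 in SKG (log2 fold change 0.50, adjusted p = 0.847 from edgeR). Sit1, a transmembrane adaptor, was low at 13.9 to 18.2 CPM in BALB/c and 22.6 to 30.1 in SKG (log2 fold change 0.63, adjusted p = 0.991 from edgeR). Dok2, the most abundant adaptor of the list, had a log2 fold change of -0.04. Of 4 other diacylglycerol kinases tested (median -0.38), 1 had separate groups. This was Dgkd, at 216, 183 and 175 CPM in BALB/c and 294, 226 and 273 in SKG (log2 fold change 0.47, adjusted p = 0.847 from edgeR). Dgke was at 27.4, 53.3 and 45.0 in BALB/c and 22.0, 27.4 and 17.5 in SKG, a log2 fold change of -0.91 with an adjusted p of 0.952 from edgeR.

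The last list held 13 substrates and downstream targets of these regulators (median 0.13). In 3 of the 13 every SKG library was above every BALB/c library, where all tested genes gave 6.77%. These 3 were Plcg1, Prkcq and Rasgrp1, which respectively encode an enzyme that makes diacylglycerol after TCR engagement, protein kinase C theta and RasGRP1. Protein kinase C theta and RasGRP1 are among the proteins that diacylglycerol activates. Plcg1 was at 241, 333 and 320.1 CPM in BALB/c and 466, 453 and 477 in SKG (log2 fold change 0.64, adjusted p = 0.686 from edgeR). Of 15 alternatives only 1 called it, DESeq2 without shrinkage (adjusted p = 0.0929), which called 2.58% of all genes. DESeq2 with shrunken fold changes (adjusted p = 0.127) and limma-voom (adjusted p = 0.576) did not call Plcg1. Prkcq was at 219.9, 286 and 315 CPM in BALB/c and 369.5, 414 and 447 in SKG (log2 fold change 0.58, adjusted p = 0.830 from edgeR). Rasgrp1 was at 456, 881 and 929 CPM in BALB/c and 1522, 1828 and 1398 in SKG (log2 fold change 1.07, adjusted p = 0.686 from edgeR). BALB/c replicate 1 had the lowest level of each of these 3 genes, and without it the log2 fold changes were 0.52, 0.45 and 0.81.

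The kinases on which Csk, Ptpn22 and the Cbl proteins act overlapped between the genotypes. Zap70 itself was at 498, 472 and 374 CPM in BALB/c and 322, 338 and 409 in SKG (log2 fold change -0.33, adjusted p = 0.953 from edgeR), which does not test the labels, since the SKG mutation alters the protein. Lck had a log2 fold change of 0.13 and Ptprc, which encodes the phosphatase CD45, one of 0.03.

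**Figure D5:**
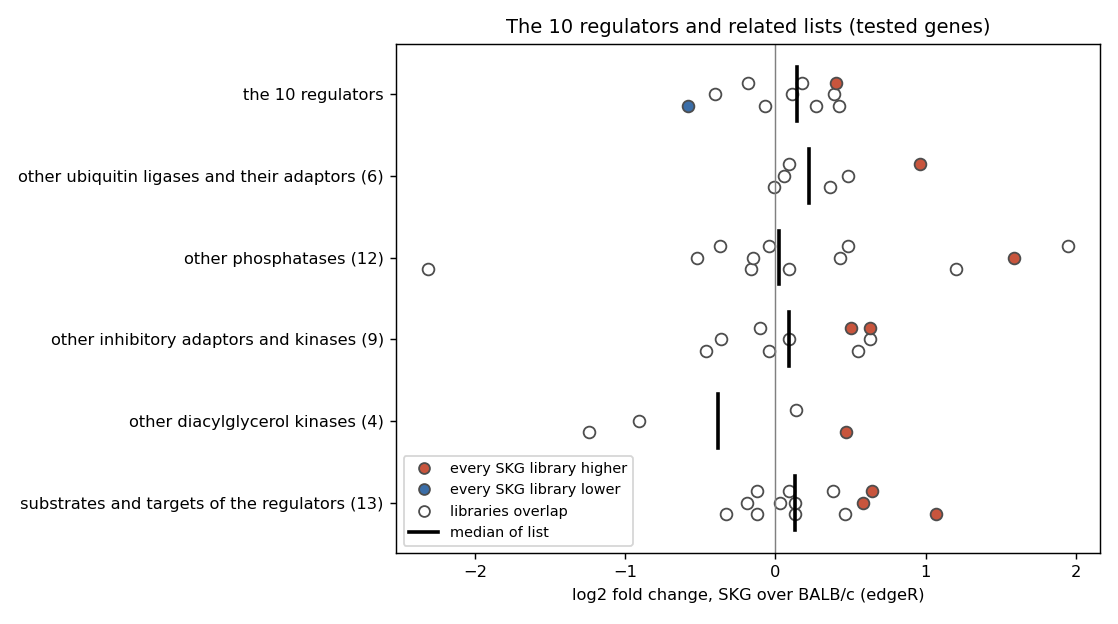
Log2 fold change of SKG over BALB/c from edgeR for the 10 regulators and the tested genes of 5 related lists, each point a gene, with the median of a list as a black bar. Filled points are genes whose libraries do not overlap, and apart from Sla (-0.58) all of these lie above 0.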

How the data were processed

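RNA-Seq was analysed for 6 libraries of stage 0 iNKT cells, 3 BALB/c and 3 SKG. Per the labels and the paper's methods, the authors aligned single-end reads of 50 nt with HISAT2 2.1.0 to GRCm38 and counted reads overlapping exons with featureCounts (Subread 1.4.4) at a mapping quality of at least 10, without strand. The deposited values are raw counts per gene symbol, unfiltered. A second deposited table, the authors' own DESeq2 comparison, was not used. The labels name SMART-Seq v4 and the methods SEQR for amplification, which was not settled.

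Counts were analysed with R 4.3.3, edgeR 4.0.16, limma 3.58.1 and DESeq2 1.42.0. After filterByExpr and TMM, all 6 libraries entered one edgeR quasi-likelihood fit without covariates. P-values were adjusted over 12312 genes (Benjamini-Hochberg), and calls needed an FDR under 0.1 and 1.5-fold. Intervals use the standard error and the degrees of freedom of that fit. Exon lengths and positions came from GENCODE M21 (GRCm38), promoter windows from RefSeq (GRCm38.p6). Fits were tested on simulated counts. The 10 genes, the lists and the tests were chosen with earlier results of these data known. Genes named are the 10, Zap70, Lck, Ubash3b, listed genes with an unadjusted p under 0.05 or separate groups, and otherwise the 2 highest of a list, of which 1 is not reported here. Alternatives were other tools, normalizations, filters, thresholds, replicate blocks, and each library left out.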

Additional observations from a re-analysis of the deposited data

How the results depend on the processing

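No alternative called any of the 10 genes. Over all genes, where edgeR called 0, DESeq2 called 370 without and 231 with shrinkage, and edgeR without a filter on low counts called 2. Among related genes, with alternatives chosen after seeing the data, DESeq2 without shrinkage called 2, Plcg1 (log2 fold change 0.66, adjusted p = 0.0929) and Dtx1, which edgeR's filter leaves out. With the replicate number of the titles as a block, 0 genes were called, and the log2 fold changes were -0.61 for Sla, 0.41 for Dgkz and 0.67 for Pag1. With the library number as a block, BALB/c replicate 3 and SKG replicate 1 drop out of the comparison, 0 genes were called, the log2 fold change of Pag1 was 1.30, and Ptpn6 reversed to 0.05 and Ptprc to -0.00. Neither block changed a call, and the numbers were not taken to pair the samples, since residuals of same-numbered libraries correlated at -0.0657 to 0.00991 for titles and at -0.0261 and -0.0192 for library numbers. The count of the 10 genes with separate groups was 2 with other factors or library totals alone and 2 to 4 with 1 library left out. It was 4 without BALB/c replicate 1 (Ptpn6, Pag1, Sla, Dgkz), without BALB/c replicate 2 (Cbl, Ubash3a, Sla, Dgkz) or without BALB/c replicate 3 (Cblb, Csk, Sla, Dgkz), as smaller groups overlap less. The share of all tested genes with separate groups at these smaller sizes is not given here. The counts with 1 library left out are therefore no result about the 10 genes in particular. Of 150 refitted values of the 10 genes, 145 kept their sign. Beside Ptpn6 with the block, those that did not were -0.03 for Ptpn22 without SKG replicate 2 (up to 0.25 with another library left out), 0.03 for Ptpn6 without BALB/c replicate 3 (down to -0.20), -0.01 for Ubash3a without SKG replicate 3 (up to 0.76) and -0.22 for Pag1 without BALB/c replicate 1 (up to 0.67). Dok2 reversed to 0.03 without SKG replicate 2 (down to -0.13), Lck to -0.01 without BALB/c replicate 2 (up to 0.33), and Ptprc to -0.01 with library totals alone and without SKG replicate 1 or 3 (up to 0.11). The cause of these changes was not tested.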

Other observations

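Several related genes that did not pass the filter on low counts had their reads in few libraries or in none. They are named after their values were seen. Dgkh, a diacylglycerol kinase of another class than Dgka and Dgkz, was read 453 times in BALB/c replicate 3, 974 times in SKG replicate 2, and 0 to 8 times in the other 4 libraries. Dtx1, which encodes a ligase of the Deltex family, had 238 and 583 reads in SKG replicates 1 and 2 and 0 in the other 4 libraries, SKG replicate 3 included. Dgkk had 32 reads in SKG replicate 1 and 0 elsewhere, and Cblc, the third Cbl gene, had 0 reads in all 6 libraries.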
